A study of Mus musculus with 10 samples.

Results

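Endoderm SMAD2/3 and Endoderm HEB are the ChIP-seq lists of enriched regions of 2 transcription factors in the same cells, and were compared region by region. All positions of regions are on build mm9 as deposited. Every region of both lists was a member, 11033 for SMAD2/3 and 18981 for HEB, or 30014 of the 78263 regions in the 6 lists of the series. A SMAD2/3 region was called shared when it overlapped a HEB region by at least 1 bp, and SMAD2/3-only when it did not, and HEB regions were split in the same way. The overlap was the only value used to split the regions, and heights, summits, locations, genes and the other lists were not used.

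The cells were made from the mouse embryonic stem cell (ESC) line CGR8, grown without feeders in serum and LIF. They were moved to serum-free medium, human Activin A was added at 100 ng/ml on day 2, and chromatin was taken on day 4. Each antibody was used on 1 library, and both libraries had the same treatment. Input tags were equal in most like regions of both lists, so 1 endoderm input was taken to serve both. The other lists were ESC SMAD2/3, ESC HEB and 2 HEB lists after SB431542 (SB), an inhibitor of the activin and Nodal type I receptor kinases: ESC+SB HEB with 10 µM for 24 hours, and Endoderm+SB HEB with 10 µM for 48 hours up to day 4. The labels can be read with Activin A present or absent during SB. With 1 library per group no spread between replicates could be measured and no test was made: every difference below compares libraries of 1 line, and intervals cover counting error only.

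SMAD2 and SMAD3 are phosphorylated by activated Nodal and activin receptors and enter the nucleus in complexes with SMAD4. These complexes bind short CAGAC-type boxes, usually beside partner factors such as FOXH1. HEB, encoded by Tcf12, belongs to the E proteins, basic helix-loop-helix factors, and binds E-boxes (CANNTG) as a dimer and is held off DNA by the Id proteins. Nodal signalling through SMAD2/3 induces mesendoderm genes such as Eomes and Gsc, and also switches on its own antagonists (Lefty1, Lefty2, Cer1) and repressors (Skil, Smad7, Pmepa1).

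Promoters of genes that the results below turn on are shown here, from 250 bases before to 50 bases after the RefSeq gene start (base 251), 5′ to 3′ on the gene's strand. They are RefSeq sequences of build GRCm38.p6, whereas the regions are on mm9, so the bases under a region cannot be placed in them. The 5′ end of Nodal lay in a SMAD2/3 region that was shared with HEB, and those of Cer1, Gsc and Prdm1 lay in shared regions of both lists. The 5′ end of Smurf2 lay in a SMAD2/3-only region and that of Id3 in a HEB-only region. Their positions are chr10:61417722-61418021 (plus strand) for Nodal, chr4:82885102-82885401 (minus) for Cer1, chr12:104473187-104473486 (minus) for Gsc, chr10:44458699-44458998 (minus) for Prdm1, chr11:106920666-106920965 (minus) for Smurf2 and chr4:136143572-136143871 (plus) for Id3. Capitals mark E-boxes (CANNTG) and SMAD boxes (CAGAC, or GTCTG on this strand).
Nodal: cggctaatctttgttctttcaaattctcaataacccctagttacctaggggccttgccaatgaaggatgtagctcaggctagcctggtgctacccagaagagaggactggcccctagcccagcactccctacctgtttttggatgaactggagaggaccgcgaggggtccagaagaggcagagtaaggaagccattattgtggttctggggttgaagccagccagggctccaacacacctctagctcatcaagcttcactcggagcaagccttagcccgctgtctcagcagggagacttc
Cer1: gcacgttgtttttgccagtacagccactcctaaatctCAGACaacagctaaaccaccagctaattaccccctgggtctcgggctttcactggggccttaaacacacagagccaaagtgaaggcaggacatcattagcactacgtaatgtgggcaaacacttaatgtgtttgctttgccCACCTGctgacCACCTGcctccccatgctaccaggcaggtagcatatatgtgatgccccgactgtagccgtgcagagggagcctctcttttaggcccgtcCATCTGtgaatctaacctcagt
Gsc: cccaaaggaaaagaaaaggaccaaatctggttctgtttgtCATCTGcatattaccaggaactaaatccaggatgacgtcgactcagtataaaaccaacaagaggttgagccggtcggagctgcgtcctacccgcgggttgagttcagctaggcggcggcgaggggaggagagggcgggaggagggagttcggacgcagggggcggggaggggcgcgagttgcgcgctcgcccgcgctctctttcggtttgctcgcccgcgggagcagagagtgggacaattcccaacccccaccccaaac
Prdm1: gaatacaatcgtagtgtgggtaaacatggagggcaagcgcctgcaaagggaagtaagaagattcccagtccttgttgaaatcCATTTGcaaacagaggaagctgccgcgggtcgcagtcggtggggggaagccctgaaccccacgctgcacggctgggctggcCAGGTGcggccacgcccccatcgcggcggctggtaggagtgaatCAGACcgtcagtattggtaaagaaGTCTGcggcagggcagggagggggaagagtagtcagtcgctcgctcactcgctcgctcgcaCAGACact
Smurf2: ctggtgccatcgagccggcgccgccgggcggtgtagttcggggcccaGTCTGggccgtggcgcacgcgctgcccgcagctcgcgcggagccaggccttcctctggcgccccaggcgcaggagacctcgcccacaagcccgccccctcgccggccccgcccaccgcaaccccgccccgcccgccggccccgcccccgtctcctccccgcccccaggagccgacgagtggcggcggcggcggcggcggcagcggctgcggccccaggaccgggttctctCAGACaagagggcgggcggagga
Id3: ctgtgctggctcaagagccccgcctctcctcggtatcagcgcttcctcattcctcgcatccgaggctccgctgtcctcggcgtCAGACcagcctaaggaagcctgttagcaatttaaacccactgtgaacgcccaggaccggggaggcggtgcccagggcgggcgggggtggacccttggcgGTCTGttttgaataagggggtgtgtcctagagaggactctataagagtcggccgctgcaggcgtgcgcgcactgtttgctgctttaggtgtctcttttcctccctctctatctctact

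The Cer1 promoter held 3 E-boxes and 1 SMAD box, that of Prdm1 2 E-boxes and 3 SMAD boxes, and that of Gsc 1 E-box and no SMAD box. Those of Smurf2 and Id3 held 2 SMAD boxes each and no E-box, and that of Nodal held neither. A match is a description of the letters, and the absence of one says only that they are not in this window.

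SMAD2/3 shared most of its regions with HEB, while HEB had most of its regions to itself. Of the 11033 SMAD2/3 regions, 6679 overlapped a HEB region (60.5%, exact Clopper-Pearson 95% confidence interval 59.6 to 61.5). Of the 18981 HEB regions, 6704 overlapped a SMAD2/3 region (35.3%, 34.6 to 36.0). This left 4354 SMAD2/3-only and 12277 HEB-only regions. The overlaps formed 6786 pairs, of which 6426 were one-to-one, and the median overlap of 500 bp covered 100% of the shorter region. The split was sharp at its edge: 3 pairs overlapped by 10 bp or less and 45 by 200 bp or less, and 96 SMAD2/3-only regions had a HEB region within 200 bp. The nearest HEB region lay a median of 28.1 kb from a SMAD2/3-only region and was within 1 kb for 330 of them (7.58%). The nearest SMAD2/3 region lay a median of 41.8 kb from a HEB-only region and was within 1 kb for 698 (5.69%).

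Heights are the authors' peak heights, whose scaling the files do not state. They began at 25.0 in both lists, had medians of 34.4 (SMAD2/3) and 39.2 (HEB) and reached 1594 (SMAD2/3) and 1628 (HEB). The regions held 2600741 SMAD2/3 tags and 5051930 HEB tags in all, and the median region 171 SMAD2/3 tags (19 input tags) and 175 HEB tags (15 input tags). Total reads per library are unknown here, so depth, antibody and occupancy cannot be told apart in a ratio of SMAD2/3 to HEB heights. Nor can more cells bound and more binding per cell. The ratios are therefore read against the median of all pairs.

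The taller a region of either factor, the more often the other factor was listed there. From the lowest to the highest quintile of SMAD2/3 height the shared share was 43.3%, 51.0%, 57.5%, 69.7% and 81.2%, and 96% of the 100 tallest SMAD2/3 regions were shared. Over the quintiles of HEB height it was 23.8%, 25.5%, 29.1%, 37.1% and 61.1%, and 90% of the 100 tallest HEB regions were shared. Promoter-proximal regions, those within 1 kb of the 5′ end of the gene the authors list, behaved differently for each factor. Promoter-proximal SMAD2/3 regions were shared less often (45.6%) than other genic ones (66.1%) and those with no gene listed (67.9%). Promoter-proximal HEB regions were shared more often (54.0%) than other genic ones (31.8%) and those with no gene listed (32.2%). In the lowest quintile the promoter-proximal shares were 29.3% for SMAD2/3 and 47.9% for HEB, and in the highest 74.1% for SMAD2/3 and 65.1% for HEB.

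**Figure D1:**
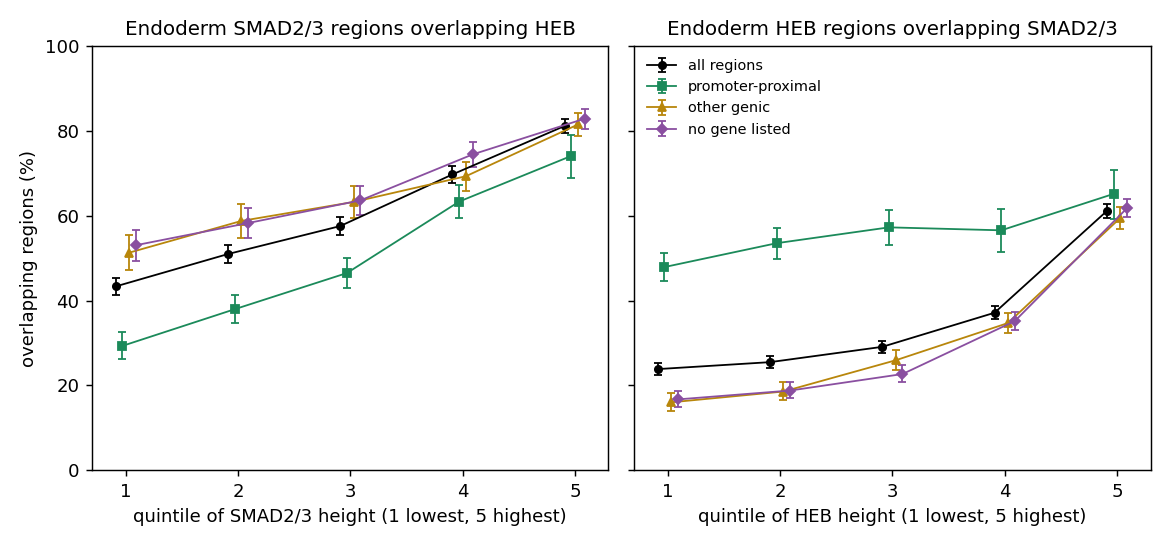
Share of regions overlapping the other factor's list (y axis, percent) by quintile of ChIP height (x axis), for SMAD2/3 regions (left) and HEB regions (right), split by location, with bars for exact 95% intervals. The SMAD2/3 share climbs through all 5 quintiles to 81.2%, with promoters below the rest, and the HEB share climbs to 61.1%, with promoters above the rest in all 5 quintiles, though with overlapping intervals in the highest.

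Where the regions lay set the 3 classes apart. Promoter-proximal regions made up 41.8% of SMAD2/3-only regions (40.4 to 43.3), 10.7% of HEB-only regions (10.2 to 11.3) and 22.8% of shared SMAD2/3 regions (21.8 to 23.9). Regions reaching the 5′ end itself were 34.7% of SMAD2/3-only, 6.73% of HEB-only and 17.8% of shared SMAD2/3 regions. Regions with no gene listed were 31.4% of SMAD2/3-only, 49.4% of HEB-only and 43.2% of shared SMAD2/3 regions. The order held at every height, since within each of the 5 quintiles of SMAD2/3 height the promoter-proximal share was larger in SMAD2/3-only than in shared regions. It was 48.6% against 26.4% in the lowest quintile and 19.0% against 12.6% in the highest. HEB-only regions had a smaller promoter-proximal share than shared HEB regions in each HEB quintile, 16.2% against 47.5% in the lowest and 6.64% against 7.89% in the highest, where the intervals overlapped.

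The classes also differed in size and signal. SMAD2/3-only regions had a median height of 31.0 and width of 493 bp, against 38.1 and 576 bp in shared SMAD2/3 regions. HEB-only regions had a median height of 36.0 and width of 447 bp, against 49.8 and 588 bp in shared HEB regions. The median tag enrichment, the authors' ratio of ChIP to input tags, was 8.70 in SMAD2/3-only, 12.6 in HEB-only and 9.94 in shared SMAD2/3 regions. An enrichment below 5 was found in 584 SMAD2/3-only regions (13.4%), 381 HEB-only regions (3.10%) and 496 shared SMAD2/3 regions (7.43%). The part of such weakly enriched regions in the promoter share was measured by leaving them out: it was then 41.5% in SMAD2/3-only, 9.80% in HEB-only and 19.0% in shared SMAD2/3 regions.

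Within shared regions the summits of both factors lay almost on top of each other. Over the 6679 shared SMAD2/3 regions, each paired with the HEB region of nearest summit, the median distance between summits was 17 bp (interquartile range 7 to 41). The signed offset, SMAD2/3 minus HEB, had a median of 0 bp. Summits lay within 10 bp in 34.4% of pairs, within 50 bp in 79.1% and within 200 bp in 92.9%. The median was 15 bp in promoter-proximal pairs, 17 bp in other genic pairs and 17 bp in pairs with no gene listed, and 16 to 19 bp over the quintiles of SMAD2/3 height. In 471 pairs the summits were more than 200 bp apart and in 159 more than 500 bp, the farthest at 4422 bp. Per the labels the sequenced fragments were longer than these median distances, so sites a few bases apart and a single site cannot be told apart.

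**Figure D2:**
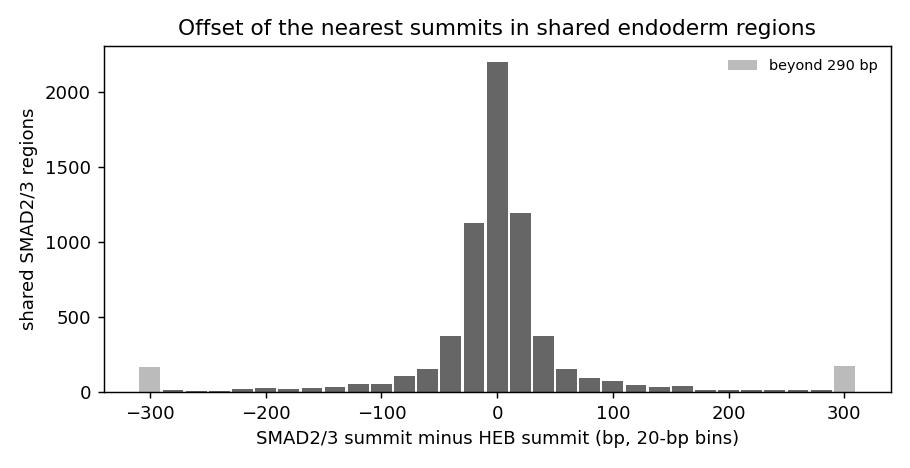
Position of the SMAD2/3 summit minus that of the nearest HEB summit (x axis, bp in 20-bp bins) against the number of shared SMAD2/3 regions (y axis), with offsets beyond 290 bp gathered in the pale outer bars. The offsets form a single peak around 0, with 79.1% of pairs within 50 bp.

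The heights of both factors in shared regions were only weakly ordered alike. The median height was 38.1 for SMAD2/3 and 50.5 for HEB, a median log2 ratio of -0.27 (SMAD2/3 over HEB). Spearman's rho of heights was 0.33 across the 6679 pairs, which share the input and local chromatin, and it was 0.63 for tag enrichment. SMAD2/3 was at least 2-fold taller in 414 pairs (6.20%) and HEB at least 2-fold taller in 1664 (24.9%). Both lists start at a height of 25.0, which bounds the ratio for low regions. Promoter-proximal pairs had a median log2 ratio of 0.02 (heights 34.9 for SMAD2/3 and 34.0 for HEB), other genic pairs -0.40 and pairs with no gene listed -0.46. Pairs where ESC SMAD2/3 was listed too had a median of -0.01 (n = 1023), and SMAD2/3 was 2-fold taller in 16.0% of them. In pairs without ESC SMAD2/3 the median was -0.32 (n = 5656) and that share 4.42%.

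**Figure D3:**
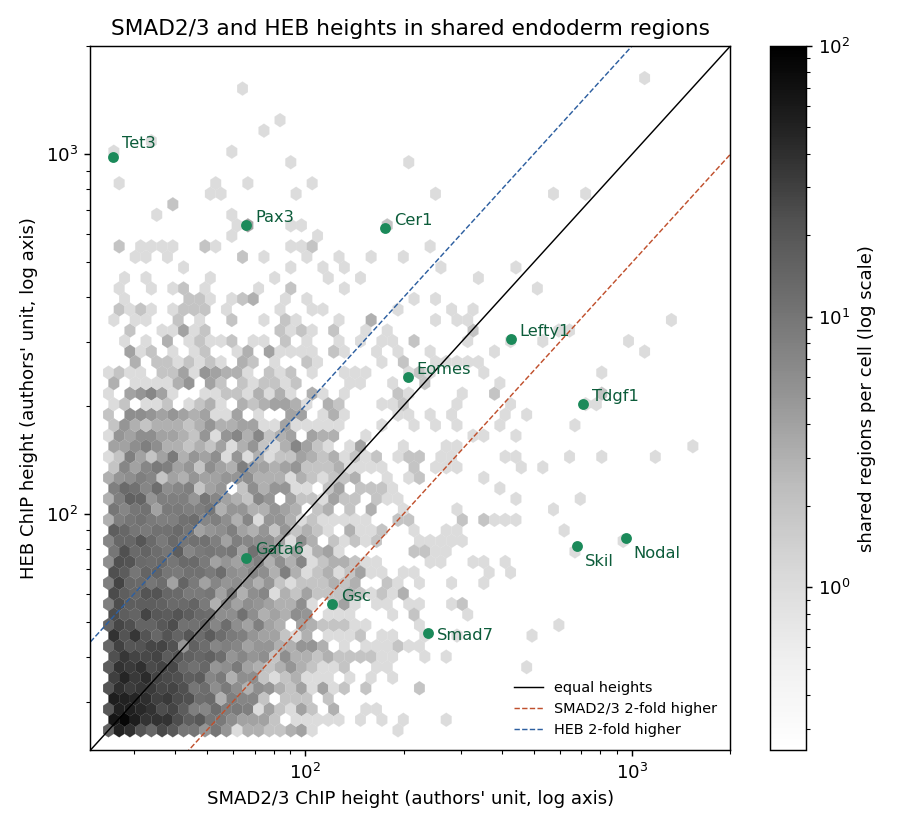
SMAD2/3 height (x axis, authors' unit, log scale) against HEB height (y axis, same unit, log scale) in the 6679 shared SMAD2/3 regions, shaded by their number, with 11 genes in green. Each gene is shown by its tallest shared SMAD2/3 region except Tet3. Tet3 was picked as the pair with a gene listed in which HEB exceeded SMAD2/3 most. Nodal, Skil, Smad7, Tdgf1 and Gsc lie below the line of 2-fold taller SMAD2/3, Cer1, Pax3 and Tet3 above that of 2-fold taller HEB, and Eomes, Gata6 and Lefty1 between them.

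Genes listed for both factors were the largest group. The authors list genes that contain a region or have one within 1 kb, and 7516 genes had a region in either list, 5246 for SMAD2/3 and 5682 for HEB. A shared region was listed at 2992 genes (39.8%), SMAD2/3 regions alone at 1827 (24.3%) and HEB regions alone at 2258 (30.0%), and 439 genes (5.84%) had regions of both factors apart from each other. These shares are the background for the gene groups below. Among all 3791 shared pairs with a gene listed the median log2 height ratio was -0.17, and SMAD2/3 was the taller in 1493.

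All 4 endoderm markers checked, Eomes, Gata6, Cer1 and Gsc, had a shared region, which shows binding near these genes and not their expression. Eomes encodes the T-box factor that starts definitive endoderm. Its shared region (chr9:118395383-118397135 in the SMAD2/3 list, 8076 bp from the 5′ end) had a height of 206 for SMAD2/3 (1517 tags) and 239 for HEB (2121 tags), with summits 63 bp apart. Nearer the 5′ end the factors lay apart, with a SMAD2/3-only region of height 26.9 at 2784 bp and a HEB-only region of height 31.0 at 243 bp. The tall Eomes region was listed in all 3 other HEB lists, including both with SB, and not in ESC SMAD2/3.

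Gata6 encodes a GATA factor of both endoderm lineages. Its region 7593 bp from the 5′ end (chr18:11060101-11060512) had heights of 66.0 for SMAD2/3 and 75.4 for HEB and summits 6 bp apart, and overlapped no other list. At the 5′ end the heights were 26.1 for SMAD2/3 and 62.2 for HEB, and the HEB region was the wider, at chr18:11050072-11053502 against chr18:11052021-11053368 for SMAD2/3. Cer1 encodes a secreted antagonist of Nodal and BMP. Over its 5′ end (chr4:82530902-82532453) SMAD2/3 stood at 176 (1475 tags) and HEB at 622 (3386 tags), a log2 ratio of -1.82, with summits 52 bp apart. This region overlapped no other list of the series.

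Gsc, the organizer homeobox gene, showed the opposite order to Cer1. At its 5′ end (chr12:105711111-105712225) SMAD2/3 stood at 121 (656 tags) and HEB at 56.0 (466 tags), a log2 ratio of 1.11, with summits 39 bp apart. A second SMAD2/3 region of Gsc, 2052 bp from the 5′ end, had a height of 34.4 and no HEB.

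The ligands, co-receptor and antagonists of Nodal carried some of the tallest SMAD2/3 regions. Of these 10 genes, 8 had a region: 4 had a shared region (Nodal, Tdgf1, Lefty1, Cer1), 3 SMAD2/3 regions alone (Lefty2, Fst, Gdf1) and 1 HEB alone (Gdf3). Inhba and Inhbb had neither. A shared region was thus listed at 50% of the genes with any region, against 39.8% of all genes listed. At Nodal, whose product is the ligand itself, the region over the 5′ end (chr10:60880503-60882523) reached 959 for SMAD2/3 (4196 tags) and 85.6 for HEB (424 tags), 11.2-fold, with summits 10 bp apart. The HEB region of Nodal was narrower (chr10:60881647-60882464) and began 927 bp from the 5′ end. These Nodal regions of both factors overlapped ESC HEB and ESC SMAD2/3 but neither list with SB. A second SMAD2/3 region of Nodal, 612 bp from the 5′ end, had a height of 25.3 and no Endoderm HEB (chr10:60878343-60880108). This second region overlapped ESC HEB, ESC+SB HEB and ESC SMAD2/3.

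Tdgf1 encodes Cripto, the co-receptor that Nodal needs. Its main region (chr9:110849525-110850914) had heights of 707 for SMAD2/3 and 201 for HEB, and a smaller one beside it 104 for SMAD2/3 and 30.2 for HEB. The ratios were alike, 3.51-fold and 3.43-fold, and in both the summits were 2 bp apart. Lefty1, a Nodal antagonist, was tall for both factors over its 5′ end (chr1:182863354-182865651), at 426 for SMAD2/3 and 306 for HEB. Its neighbour Lefty2 had a SMAD2/3-only region at the 5′ end with a height of 54.5 (chr1:182822955-182823738). Between these Lefty1 and Lefty2 regions lay a taller shared region with no gene listed (chr1:182854268-182855612). It had 1314 for SMAD2/3 and 334 for HEB. Fst, which encodes the activin trap follistatin, had a SMAD2/3-only region of 36.3 at its 5′ end (chr13:115248645-115250073). The SMAD2/3-only regions of Lefty2 and Fst both overlapped ESC HEB. The median log2 ratio over the 5 pairs of this group was 1.78, with SMAD2/3 the taller in 4, Cer1 being the exception.

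Receptors and effectors of the pathway had low SMAD2/3 regions, of 27.8 to 39.1, while HEB heights reached 138. Of 9 genes, 3 had a shared region (Tgfbr1, Smad3, Foxh1), 1 SMAD2/3 alone (Acvr1b) and 3 HEB alone (Acvr1c, Smad2, Smad4), and the activin type II receptor genes Acvr2a and Acvr2b had neither. Those with a shared region were 42.9% of the genes with any region, near the 39.8% of all genes listed. Foxh1, which encodes the forkhead partner of SMAD2/3, had 2 shared regions, one with 29.7 for SMAD2/3 and 101 for HEB, the other with 27.8 for SMAD2/3 and 64.0 for HEB. In Smad3, the tallest region was a HEB-only one of 138 inside the gene (chr9:63598075-63598768), while the shared region at the 5′ end stood at 33.2 for SMAD2/3 and 26.8 for HEB. Tgfbr1, a type I receptor gene, had 39.1 for SMAD2/3 and 26.2 for HEB at its 5′ end. The 5′ end of Acvr1b, which encodes the activin type I receptor ALK4, lay in a SMAD2/3-only region with a height of 30.7.

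Repressors and feedback inhibitors of SMAD signalling were mostly listed for both factors, and SMAD2/3 was the taller nearly throughout. Of 10 genes, 9 had a SMAD2/3 region and 8 of these a shared one, Smurf2 had SMAD2/3 alone and Smurf1 had neither factor. The shared genes were 88.9% of those with any region, against 39.8% of all genes listed. With lists of equal length 5 of the 9 genes with a region were shared. SMAD2/3 was taller in 15 of the 18 pairs, with a median log2 ratio of 0.28, against -0.17 over all pairs with a gene. Skil, which encodes the co-repressor SnoN, had 680 for SMAD2/3 (4958 tags) and 81.2 for HEB (766 tags) over its 5′ end (chr3:30992519-30995167), 8.38-fold. Its summits lay 335 bp apart, beyond the 200 bp within which 92.9% of all pairs fell. Ski, its homologue, had 226 for SMAD2/3 and 124 for HEB in a region inside the gene (chr4:154563517-154564775).

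Pmepa1, which encodes a membrane protein that sequesters SMAD2/3, had 11 SMAD2/3 and 5 HEB regions. In the 4 shared SMAD2/3 regions the heights were 429 for SMAD2/3 and 66.1 for HEB, 320 for SMAD2/3 and 72.9 for HEB, 70.3 for SMAD2/3 and 58.7 for HEB, and 65.3 for SMAD2/3 and 58.0 for HEB. The HEB heights were thus nearly level where the SMAD2/3 heights were not. The 7 SMAD2/3-only regions of Pmepa1 ranged from 30.4 to 195. Smad7, the inhibitory SMAD, had 237 for SMAD2/3 and 46.5 for HEB at its 5′ end (chr18:75525953-75528136), with summits 69 bp apart. In a second Smad7 region, 2459 bp from the 5′ end, the heights were 62.3 for SMAD2/3 and 65.6 for HEB. Smad6 had 95.7 for SMAD2/3 and 37.0 for HEB at its 5′ end (chr9:63869449-63871252), and Bambi, a pseudoreceptor gene, 86.4 for SMAD2/3 and 25.6 for HEB (chr18:3506780-3508696). In Smurf2, a ubiquitin ligase gene of the pathway, the SMAD2/3-only region at the 5′ end had a height of 36.4 and overlapped Endoderm+SB HEB.

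Definitive endoderm genes had the reverse order of heights. Of 22 genes, 14 had SMAD2/3, each with a shared region, and 21 had HEB. The genes with a shared region were Eomes, Gata4, Gata6, Cer1, Gsc, Foxa1, Foxa2, Mixl1, Cxcr4, Lhx1, Otx2, Prdm1, Frzb and Cldn6. HEB alone was listed at 7, among them Sox17, Foxa3, Hhex, Hnf4a, Dkk1 and Kit, SMAD2/3 alone was listed at none, and Sox7 had neither factor. Shared genes were 66.7% of those with any region, against 39.8% of all genes. HEB was taller in 16 of the 18 pairs and the median log2 ratio was -0.87, against -0.17 over all pairs with a gene. This order was not particular to endoderm genes. The median was -0.65 for primitive streak and mesoderm, -0.59 for pluripotency and -0.53 for E protein and Id genes. It was -0.45 for receptors and effectors, -0.43 for neuroectoderm and 0.07 for extraembryonic endoderm, basement membrane and keratin genes. SMAD2/3 was the taller at 2 genes, Gsc and Mixl1, a homeobox gene of the primitive streak (103 for SMAD2/3 and 49.1 for HEB).

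Gata4, a GATA factor gene of endoderm and heart, had 75.3 for SMAD2/3 and 168 for HEB in a region 5444 bp from the 5′ end (chr14:63858165-63858653). At its 5′ end a HEB region of chr14:63862892-63867928 enclosed a SMAD2/3 region of chr14:63863887-63865372, with the same summit base and heights of 40.2 for SMAD2/3 and 84.5 for HEB. Otx2, a head organizer homeobox gene, had 103 for SMAD2/3 and 162 for HEB over its 5′ end. Lhx1, a LIM homeobox gene of the organizer, had 112 for SMAD2/3 and 132 for HEB, with summits 3 bp apart. Prdm1 encodes the repressor BLIMP1 and had 2 shared regions, one of them 14804 bp from the 5′ end. Their SMAD2/3 heights were 56.1 and 28.2 and their HEB heights 149 and 76.1. Foxa2, a pioneer factor gene of endoderm, had 36.8 for SMAD2/3 and 115 for HEB at its 5′ end. Among genes with HEB alone, Hhex had regions of 71.8 and 66.9 and Sox17 of 38.4 and 35.6.

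**Figure D4:**
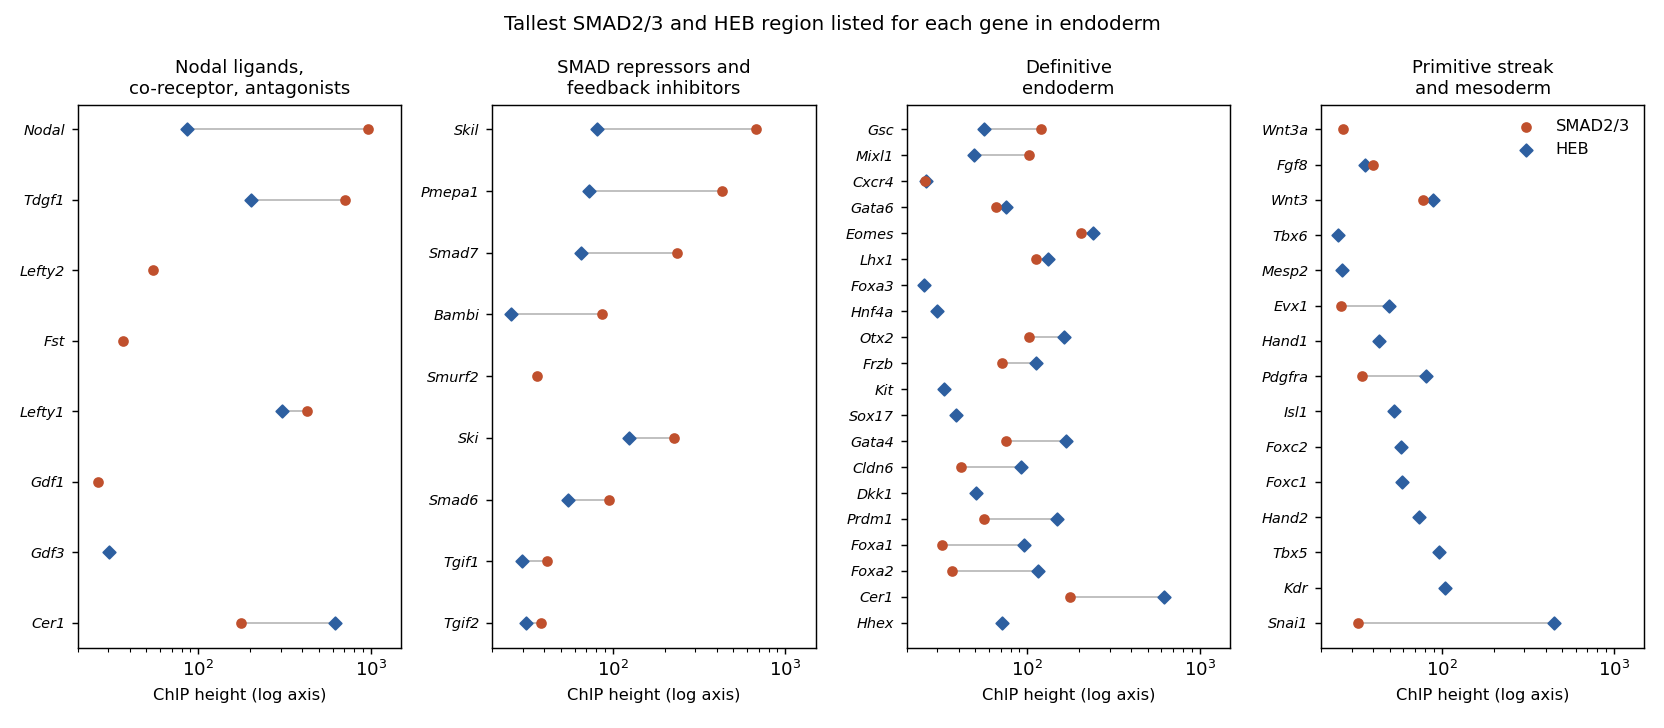
Tallest SMAD2/3 (circles) and HEB (diamonds) region listed for genes with any region in 4 gene groups (x axis, ChIP height in the authors' unit, log scale), where a grey line joins both values and a lone symbol means that the other factor has no region. Circles lie to the right of diamonds at all 8 repressor genes with both factors, and diamonds to the right at 12 of the 14 endoderm genes with both.

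Primitive streak and mesoderm genes were mostly listed for HEB. Of 22 genes, 6 had SMAD2/3 and 14 HEB. A shared region was listed at 4 (Wnt3, Fgf8, Snai1, Evx1), SMAD2/3 alone at Wnt3a and HEB alone at 9, and at Pdgfra the factors lay apart. Shared genes were 26.7% of those with any region, against 39.8% of all genes listed, of which 30.0% had HEB alone. Snai1, the regulator of epithelial-mesenchymal transition, had its tallest HEB region (448, chr2:167365415-167366669) without SMAD2/3, and a shared one over the 5′ end with 32.6 for SMAD2/3 and 86.9 for HEB. Wnt3, a ligand gene of streak formation, had 3 shared SMAD2/3 regions of 78.1, 66.6 and 32.8. Kdr (104), Tbx5 (96.5) and Hand2 (73.7) had HEB-only regions, and T, the Brachyury gene, had no region of either factor.

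Pluripotency genes divided into bound and unbound. Of 20 genes, 9 had a region, 7 of these a shared one (Pou5f1, Sox2, Nanog, Esrrb, Tbx3, Sall4, Utf1), and 11 had neither factor. Klf4 had SMAD2/3 alone and Tdh HEB alone. The 7 shared genes were 77.8% of those with any region, against 39.8% of all genes listed. HEB was taller in 10 of the 11 pairs. The exception was Nanog, with 117 for SMAD2/3 and 75.2 for HEB over its 5′ end (chr6:122656975-122657705). Sall4 had 131 for SMAD2/3 and 188 for HEB (chr2:168587354-168588619), and Pou5f1, the OCT4 gene, 86.6 for SMAD2/3 and 96.5 for HEB. Sox2 had 43.0 for SMAD2/3 and 95.8 for HEB, and Tbx3 35.6 for SMAD2/3 and 116 for HEB.

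Neuroectoderm genes, which mark another lineage, had HEB alone more often than both factors. Of 22 genes, 8 had SMAD2/3 and 17 HEB, with a shared region at 7, SMAD2/3 alone at Neurog2 and HEB alone at 10. The shared genes were 38.9% of those with any region, near the 39.8% of all genes listed. HEB alone was listed at 30.0% of all genes. Pax3, a neural crest and muscle factor gene, had the extreme of this group, with 66.1 for SMAD2/3 and 635 for HEB in a region 14689 bp from its 5′ end (chr1:78178414-78179022) and summits 1 bp apart. Pax7, its homologue, had 5 shared regions, and in the tallest SMAD2/3 stood at 186 and HEB at 121. Zic2 had 83.2 for SMAD2/3 and 76.0 for HEB. HEB-only regions reached 126 at Nkx2-2 and 82.7 at Nkx6-1.

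Of the 16 genes of extraembryonic endoderm, basement membrane and keratins, 6 had a shared region, 5 HEB alone and 2 both factors apart (Sparc, Pdgfra). The 6 were 46.2% of the genes with any region, against 39.8% of all genes listed. Krt8, a keratin of simple epithelia, had 75.8 for SMAD2/3 and 42.9 for HEB at its 5′ end, and a taller HEB-only region of 177 beside it (chr15:101835710-101836355). Dab2, an endocytic adaptor gene, had 67.4 for SMAD2/3 and 40.6 for HEB with summits 2 bp apart.

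Among genes of E proteins and their Id inhibitors, Tcf12, the gene of HEB itself, had SMAD2/3 alone, and HEB was listed at all 4 Id genes. HEB was listed at 5682 of all 7516 genes, so its presence was not particular to the Id genes. Of the 7 genes of this group, 6 had a region and 2 a shared one (Tcf4, Id1). These were 33.3% of the genes with any region, against 39.8% of all genes listed. The 5′ end of Tcf12 lay in a SMAD2/3-only region with a height of 41.2 (184 tags, chr9:71959449-71960097). This region had no overlap with Endoderm HEB but overlapped Endoderm+SB HEB and ESC+SB HEB. Id1 was the one Id gene with SMAD2/3: its 2 SMAD2/3 regions had heights of 109 and 103 and were paired with HEB heights of 284 and 148. Id2, Id3 and Id4 had HEB alone, at 68.0, 33.8 and 25.3. Tcf4 had a shared region at the 5′ end with 32.0 for SMAD2/3 and 32.1 for HEB, and Tcf3 had neither.

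The pairs at the ends of the height ratio were not all pathway genes. Pairs in which SMAD2/3 exceeded HEB most included D18Ertd653e (476 for SMAD2/3 and 36.5 for HEB), a region listed for Acad11 and Ccrl1 (593 for SMAD2/3 and 49.7 for HEB), Nodal and Radil (276 for SMAD2/3 and 27.0 for HEB).

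HEB exceeded SMAD2/3 most at Tet3, a gene of 5-methylcytosine oxidation (25.9 for SMAD2/3 and 984 for HEB, chr6:83371601-83372273). Next was Gse1, with 33.2 for SMAD2/3 and 1092 for HEB. At Clybl SMAD2/3 stood at 39.0 and HEB at 723, at Ctnnd2 SMAD2/3 at 29.2 and HEB at 511, at Sh3rf1 SMAD2/3 at 31.4 and HEB at 546, and at AI661453 SMAD2/3 at 72.1 and HEB at 1172. These SMAD2/3 heights lay near the list minimum of 25.0 except at AI661453. Summits were 4 to 32 bp apart at Gse1, Clybl, Ctnnd2 and AI661453, and 204 and 429 bp apart at Tet3 and Sh3rf1.

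Of the 10 gene-associated pairs tall in both lists, 2 lay in Otx2os1, the transcript antisense to Otx2. Their heights were 332 and 317 for SMAD2/3 and 316 and 354 for HEB, with summits 11 and 14 bp apart. Otx2os1 held 9 shared regions in all. Asb4 had 289 for SMAD2/3 and 370 for HEB, and Rps6ka2, a kinase gene, 258 for SMAD2/3 and 495 for HEB. Lefty1, 9030409G11Rik, Bbs9, Lypd6 and Fam55d were also among them, with SMAD2/3 heights of 248 to 656 and HEB heights of 288 to 348. The tallest such pair, at Mir715, had 1058 for SMAD2/3 and 1628 for HEB, but also 2240 input tags in each list and enrichments of 5.87 for SMAD2/3 and 8.55 for HEB. Its height thus goes with high input, and the part of the input in it was not tested. The gene with the most shared regions was Auts2, with 15 of its 17 SMAD2/3 regions shared, followed by Maml3, a Notch co-activator gene, with 11 of 12. Over all SMAD2/3 regions 60.5% were shared, and the ranking itself used the number of shared regions.

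The tallest SMAD2/3-only regions with a gene were at Clcn4-2 (672), Lgr4 (364), Ccny (255), Vmn2r3 (253), Pmepa1 (195) and Gng7 (187). Those of Clcn4-2, Lgr4 and Ccny reached the 5′ end, and 4 of the 6 (Clcn4-2, Lgr4, Ccny, Gng7) were also in the ESC SMAD2/3 list. That list covered 12.5% of all SMAD2/3-only regions and 38.2% of those in the highest quintile of SMAD2/3 height. Lgr4 encodes an R-spondin receptor of the Wnt pathway, and its region (chr2:109756981-109758599) was 170227 bp from the nearest Endoderm HEB region. The Lgr4 region nevertheless overlapped ESC HEB, and that of Ccny overlapped ESC+SB HEB. The tallest HEB-only regions with a gene were at 1110051M20Rik (592), Snai1 (448), Ust (428), Irf2bp1 (402), Epb4.1l4a (396) and Ttc7b (382). None of these reached a 5′ end, 5 were also in ESC HEB and none was in ESC SMAD2/3. ESC HEB covered 23.9% of all HEB-only regions and 34.9% of those in the highest quintile of HEB height. ESC SMAD2/3 covered 2.49% of all HEB-only regions. With 6 regions picked by height, these counts are descriptions. Across all regions with a gene, 256 genes had 3 or more shared regions and 71 had 5 or more. A region can be listed for several genes, so these genes are not independent of each other. The Pcdhga and Pcdhgb genes among the 71 all had the same counts: 5 shared of 6 SMAD2/3 regions, and 7 HEB regions.

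The other lists, which the classes did not use, held the classes to different degrees. Each is a list of HEB or SMAD2/3, the factors that define the classes, so these shares are not independent of the split. Shared SMAD2/3 regions were also wider (median 576 bp) than SMAD2/3-only (493 bp) and HEB-only regions (447 bp). The part of width in the shares was not tested. ESC SMAD2/3 was listed at 15.3% of shared SMAD2/3 regions (14.5 to 16.2), 12.5% of SMAD2/3-only regions (11.5 to 13.5) and 2.49% of HEB-only regions (2.22 to 2.78). The order of the SMAD2/3 classes depended on height: in the highest quintile it was 28.8% of shared and 38.2% of SMAD2/3-only regions. ESC HEB was listed at 38.5% of shared SMAD2/3, 15.1% of SMAD2/3-only and 23.9% of HEB-only regions. Endoderm+SB HEB was listed at 43.2% of shared SMAD2/3, 19.4% of SMAD2/3-only and 15.5% of HEB-only regions. ESC+SB HEB was listed at 41.5% of shared SMAD2/3, 24.4% of SMAD2/3-only and 22.9% of HEB-only regions. At least 1 of these 3 HEB lists thus covered 1618 of the 4354 SMAD2/3-only regions (37.2%), where the Endoderm HEB list had no region, and 60.2% of shared SMAD2/3 regions.

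**Figure D5:**
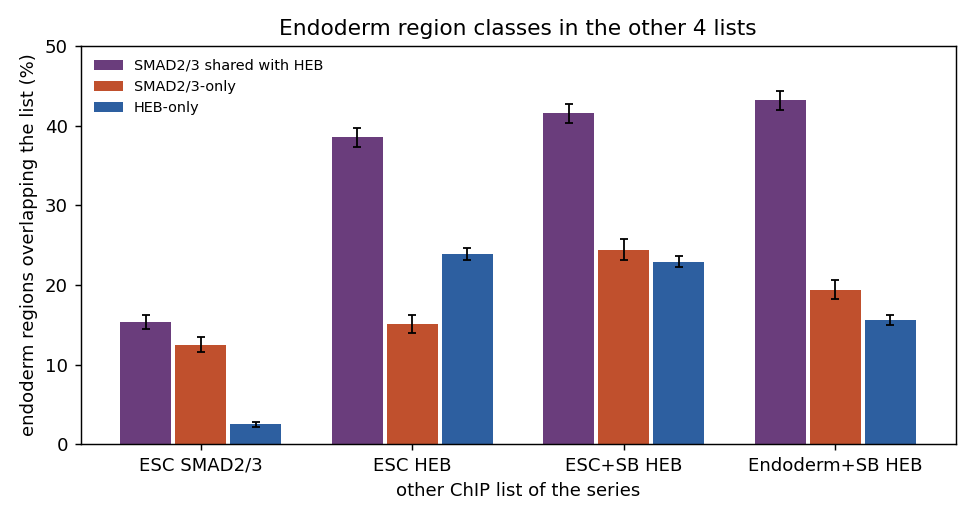
Share of shared SMAD2/3, SMAD2/3-only and HEB-only regions (bars, with exact 95% intervals) that overlap each of the other 4 lists (x axis). Shared regions have the tallest bar in every list, and HEB-only regions are nearly absent from ESC SMAD2/3 (2.49%).

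Shared promoter-proximal regions were in the other HEB lists more often than shared regions with no gene listed, with SB and without. Of promoter-proximal shared SMAD2/3 regions, 70.8% were in Endoderm+SB HEB and 78.4% in ESC+SB HEB, against 34.5% in Endoderm+SB HEB and 30.9% in ESC+SB HEB of shared regions with no gene listed. In ESC HEB, without SB, it was 58.9% of promoter-proximal shared SMAD2/3 regions and 32.8% of those with no gene listed. Of promoter-proximal SMAD2/3-only regions, 33.4% were in Endoderm+SB HEB and 37.3% in ESC+SB HEB, against 10.2% in Endoderm+SB HEB and 14.8% in ESC+SB HEB of those with no gene listed. In ESC HEB these shares were 15.6% of promoter-proximal SMAD2/3-only regions and 14.7% of those with no gene listed. Of promoter-proximal HEB-only regions, 39.5% were in Endoderm+SB HEB and 63.3% in ESC+SB HEB. For HEB-only regions with no gene listed it was 13.4% in Endoderm+SB HEB and 18.3% in ESC+SB HEB. In both locations HEB-only regions thus had larger shares in the SB lists than SMAD2/3-only regions, the reverse of the order over all locations. Lists differ in length and tags, so absence from a list is not absence of binding.

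Promoters of genes whose 5′ end lay in a region were searched for motifs on both strands, at every RefSeq start of the gene. Other starts of such a gene need not lie in a region. RefSeq promoters were found for 964 of 1199 genes (80.4%) with the 5′ end in shared regions of both lists and for 1003 of 1238 genes (81.0%) with it in a SMAD2/3-only region and no HEB region. For genes with the 5′ end in a HEB-only region the table held 541 of 684 (79.1%). This fell just under the 80% of genes required for such a comparison, which is therefore void for them. An E-box, CANNTG, was present in 56.7% of SMAD2/3-only promoters, 65.3% of shared promoters and 72.3% of all 32851 promoters of the table. CAGCTG, an E-box contained in CANNTG, was in 11.3% of SMAD2/3-only, 17.0% of shared and 16.3% of all promoters. CAGGTG, also contained in CANNTG and added after values were seen, was in 15.2% of SMAD2/3-only, 21.9% of shared and 20.2% of all promoters. The SMAD box CAGAC was in 51.5% of SMAD2/3-only, 45.0% of shared and 49.6% of all promoters. The palindrome GTCTAGAC, which contains no CAGAC on either strand, was in 0.32% of SMAD2/3-only, 0.41% of shared and 0.21% of all promoters. AATNNACA, a form of the FOXH1 motif, was in 6.82% of SMAD2/3-only, 6.93% of shared and 12.2% of all promoters. Median GC content was 64.7% in SMAD2/3-only, 63.3% in shared and 52.7% in all promoters, and it moves with the classes. Its part in the motif shares was not tested.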

How the data were processed

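ChIP-seq of SMAD2/3 and of HEB in CGR8-derived endoderm was analysed with 1 library each, from the region lists deposited by the authors. CASAVA 1.8.2 and build mm9 come from the submitters' processing notes. The aligner, the peak caller and the gene models behind the lists are not stated in the labels or file headers. Per the file headers, each region has counts of ChIP and input tags (whole numbers), a signal (the height of the ChIP and input profiles, scaling not stated), the authors' ratio of tags (here tag enrichment), and a score headed as −log10 q that reached values too large for that scale and was not used. The files do not say if positions start at 0 or 1. In 177 region pairs of both lists with edges within 10 bp, 81.4% had equal input tags and the median ratio of input heights was 1.01, so the lists were taken to share 1 input with no rescaling.

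Rows that repeat a region for several genes were merged. Overlaps (at least 1 bp) were computed in Python 3.11.15 with pandas 2.3.3 and numpy 2.4.6, were tested on simulated lists, and gave the 6786 pairs that bedtools 2.31.1 gave. Shares have exact Clopper-Pearson 95% intervals (scipy 1.17.1). These cover counting error only, since PCR reads without molecular identifiers are not independent molecules. Promoter sequences are RefSeq's (GRCm38.p6).

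Named were Eomes, Gata6, Cer1 and Gsc, up to 6 genes per list by height, the 10 genic pairs tall in both lists, and the 6 genic regions or pairs at each extreme. Other genes named were chosen after their values were seen. The members and gene lists were chosen with earlier results of these data known, so their counts are descriptions. Alternatives changed the overlap rule, the height threshold, the list lengths, the promoter definition and the measure of height. The removal of regions with tag enrichment below 5 was chosen after seeing the data. Some genes that these rules name are not reported here.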

Additional observations from a re-analysis of the deposited data

How the results depend on the processing

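No paired analysis was possible because each group has 1 library. Of 53 alternative values, 27 stayed within their interval or 1.5 times the count, 26 moved and 0 reversed. The share of SMAD2/3 regions overlapping HEB (60.5%) was 53.1% with summits no more than 100 bp apart, 52.7% with the upper 50% of each list by height, 43.2% with lists of equal length and 72.2% with the upper 50% of the SMAD2/3 list alone. The share of HEB regions overlapping SMAD2/3 (35.3%) was 30.9% with summits no more than 100 bp apart, 30.8% with the upper 50% of each list, 42.9% with lists of equal length, 33.2% without regions of tag enrichment below 5 and 45.3% with the upper 50% of the HEB list alone. With equal lengths both factors thus shared about the same part of their regions, as the construction of that alternative requires.

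The promoter-proximal share of SMAD2/3-only regions (41.8%) was 39.8% by summits, 34.8% with the upper 50% of each list and 34.7% for regions reaching the 5′ end. That of HEB-only regions (10.7%) was 12.0% by summits, 8.39% with the upper 50%, 7.67% with equal lengths, 9.80% without low enrichment and 6.73% for regions reaching the 5′ end. That of shared SMAD2/3 regions (22.8%) was 13.0% with the upper 50%, 14.7% with equal lengths, 19.0% without low enrichment and 17.8% for regions reaching the 5′ end. The order of the classes held in each of these. Spearman's rho of the pairs (0.33 by height) was 0.63 by tag enrichment and 0.52 by ChIP tags. Of the 136 distinct genes on the lists, 54 had shared regions, or 35 with the upper 50%, 9 had SMAD2/3 alone, or 18 with equal lengths, and 39 had HEB alone, or 22 with equal lengths. With equal lengths a shared region was listed at 5 of 9 repressor genes with any region, 13 of 18 endoderm genes and 7 of 8 pluripotency genes, so the largest share was no longer that of the repressor genes. With the upper 50% of each list it was 5 of 9 repressor and 13 of 16 endoderm genes. Why the values moved was not tested, beyond the fewer regions each alternative holds. Depth is known only as tags per region, and regions just under the height of 25.0 are not in the lists.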

Other observations

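Genes outside the gene groups also had several shared regions. Auts2 held 17 SMAD2/3 and 33 HEB regions, of which 15 SMAD2/3 regions were shared, and Maml3 12 SMAD2/3 and 19 HEB regions. Runx1, a haematopoietic transcription factor gene, had 8 of 9 SMAD2/3 regions shared, Park2 8 of 9 and Rnf220 8 of 9. Over all SMAD2/3 regions 60.5% were shared, and 66.1% of the other genic ones. These genes were picked by their number of shared regions after the counts were seen, so their shared fractions are not a separate result. Their number of regions also depends on their length, which was not measured here.

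On the X chromosome, 65.4% of 107 SMAD2/3 regions and 26.6% of 259 HEB regions were shared, against 60.5% for SMAD2/3 and 35.3% for HEB over all chromosomes. The exact interval on X was 55.6 to 74.4 for SMAD2/3, which holds the share over all chromosomes, and 21.4 to 32.5 for HEB, which lies below it.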
